A study of Mus musculus with 12 samples.

Results

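The antiviral interferon stimulated genes are effector genes that interferon switches on in cells and whose products act against viruses. The set was a list of 45 genes, each represented by its probe set of highest mean signal. A probe set annotated to that gene alone was found for 42 of them, and all 42 passed the filter on dim probe sets and were tested among 12429 genes. The other 3 were not measured here: Ifi44 and Phf11b had no annotated probe set, and the probe set of Isg15 was shared with another gene. The signals came from dendritic cells grown from the bone marrow of mice aged 6 to 8 weeks, kept for 10 days with GM-CSF at 20 ng/ml. Cultures held no retinoid, retinoic acid (RA, given as 10 nmol) or the retinoic acid receptor alpha antagonist Ro41-5253 (Ro, given as 100 nmol), each without LPS or with LPS at 1 ug/ml. RA and Ro were present from the start of culture, and the time of LPS exposure was not stated separately. Each of these 6 conditions was measured on 1 array from BALB/c mice and 1 array from BL6 mice, 12 arrays in all. No label named a genetic change in any group, and the doses of RA and Ro differed, so they were not tested against each other.

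Type I interferons are secreted proteins that bind a receptor of the paired chains Ifnar1 and Ifnar2. The kinases Jak1 and Tyk2 then signal to transcription factors, and Stat2 with Irf9 takes part in binding the interferon stimulated response element in the promoters of these genes. LPS, a component of the wall of Gram-negative bacteria, is sensed by Tlr4, and the adaptor Ticam1 carries that signal through Tbk1 and Irf3 to the gene of interferon beta, Ifnb1. Irf7, itself an interferon stimulated gene, amplifies the loop.

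The response element has the core letters GAAANNGAA, which read TTCNNTTTC on the other strand. These letters were searched in the 250 bases before each transcription start in RefSeq's promoters of the build GRCm38.p6, where 35 of the 45 genes matched a promoter. A match on either strand was found in a promoter of 14 of the 35 genes (40%), against 2211 of all 27025 genes searched (8.18%). Counted by promoter, 14 of the members' 45 held a match, against 7.13% of all 32851. Matches in overlapping positions were all counted. The promoters of the 4 genes with a match and the largest LPS change are shown, to show where these letters lie in members that rose strongly with LPS. Each is written 5′ to 3′ on the strand of its gene, ends at the base before the start site, and has the matches in capitals. That of Rsad2 lies at chr12:26456453-26456702 on the minus strand. Those of Ifit1 and Ifit3 lie at chr19:34640639-34640888 and chr19:34583279-34583528, and that of Ddx60 at chr8:61927837-61928086, all on the plus strand.
Rsad2: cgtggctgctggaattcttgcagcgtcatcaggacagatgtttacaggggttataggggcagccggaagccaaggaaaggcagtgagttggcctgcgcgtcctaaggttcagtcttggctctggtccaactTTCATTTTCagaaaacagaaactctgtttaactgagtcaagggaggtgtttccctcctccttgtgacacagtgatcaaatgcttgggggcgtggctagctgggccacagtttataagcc
Ifit1: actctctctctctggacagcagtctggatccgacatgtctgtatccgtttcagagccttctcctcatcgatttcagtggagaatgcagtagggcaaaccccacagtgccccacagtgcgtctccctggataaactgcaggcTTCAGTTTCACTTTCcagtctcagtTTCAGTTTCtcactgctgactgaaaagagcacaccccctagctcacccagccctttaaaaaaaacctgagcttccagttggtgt
Ifit3: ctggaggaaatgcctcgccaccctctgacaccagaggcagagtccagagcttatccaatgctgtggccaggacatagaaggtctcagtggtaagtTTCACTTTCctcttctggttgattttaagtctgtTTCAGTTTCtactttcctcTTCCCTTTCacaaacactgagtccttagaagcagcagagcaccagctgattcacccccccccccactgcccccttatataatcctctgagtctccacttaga
Ddx60: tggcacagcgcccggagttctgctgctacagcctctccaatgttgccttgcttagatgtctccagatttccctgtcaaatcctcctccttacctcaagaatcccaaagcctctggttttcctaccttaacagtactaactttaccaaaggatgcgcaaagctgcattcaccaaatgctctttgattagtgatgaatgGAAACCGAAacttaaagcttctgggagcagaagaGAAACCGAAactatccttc
Rsad2 held 1 match, Ifit1 and Ifit3 held 3 each, and Ddx60 held 2 identical ones. The 2 upstream matches of Ifit1 overlap by 3 bases in the run of capitals. The matches of Ifit1, Ifit3 and Rsad2 ended 75 to 146 bases before the start site, and those of Ddx60 at 44 and 10 bases. Among tested members, the LPS change described below ran from -0.44 to 4.95 in the 12 with a match (median 2.38) and from 0.62 to 5.73 in the 20 without one (median 1.36), a description with no test. Slfn4, Oasl1 and Cmpk2, whose changes were largest on the chosen probe sets, were not among the genes with a match in this window. Other probe sets of Rsad2, given below, changed more than these.

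Array medians lay between 21.4 and 41.8. Of the listed dendritic cell markers, Cd74, H2-Ab1 and Itgax lay far above these medians on every array, and 6 of 9 markers of that list were above the array median on all 12. The others, Flt3, Zbtb46 and Cd209a, were above it on 8, 11 and 8 arrays. Of the 7 measured macrophage and monocyte markers, 5 were also above the array median on all 12. None of the 5 measured B cell, T cell and NK cell markers passed the filter. Neutrophil markers (7 of 8 measured) moved with LPS: their summed signal ran from 10290 to 42960 without LPS and from 316.9 to 3589 with it. The part of these cells in the LPS results was not tested. In bulk RNA, a change in the number of cells of a type and a change in RNA per cell cannot be told apart.

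**Figure D1:**
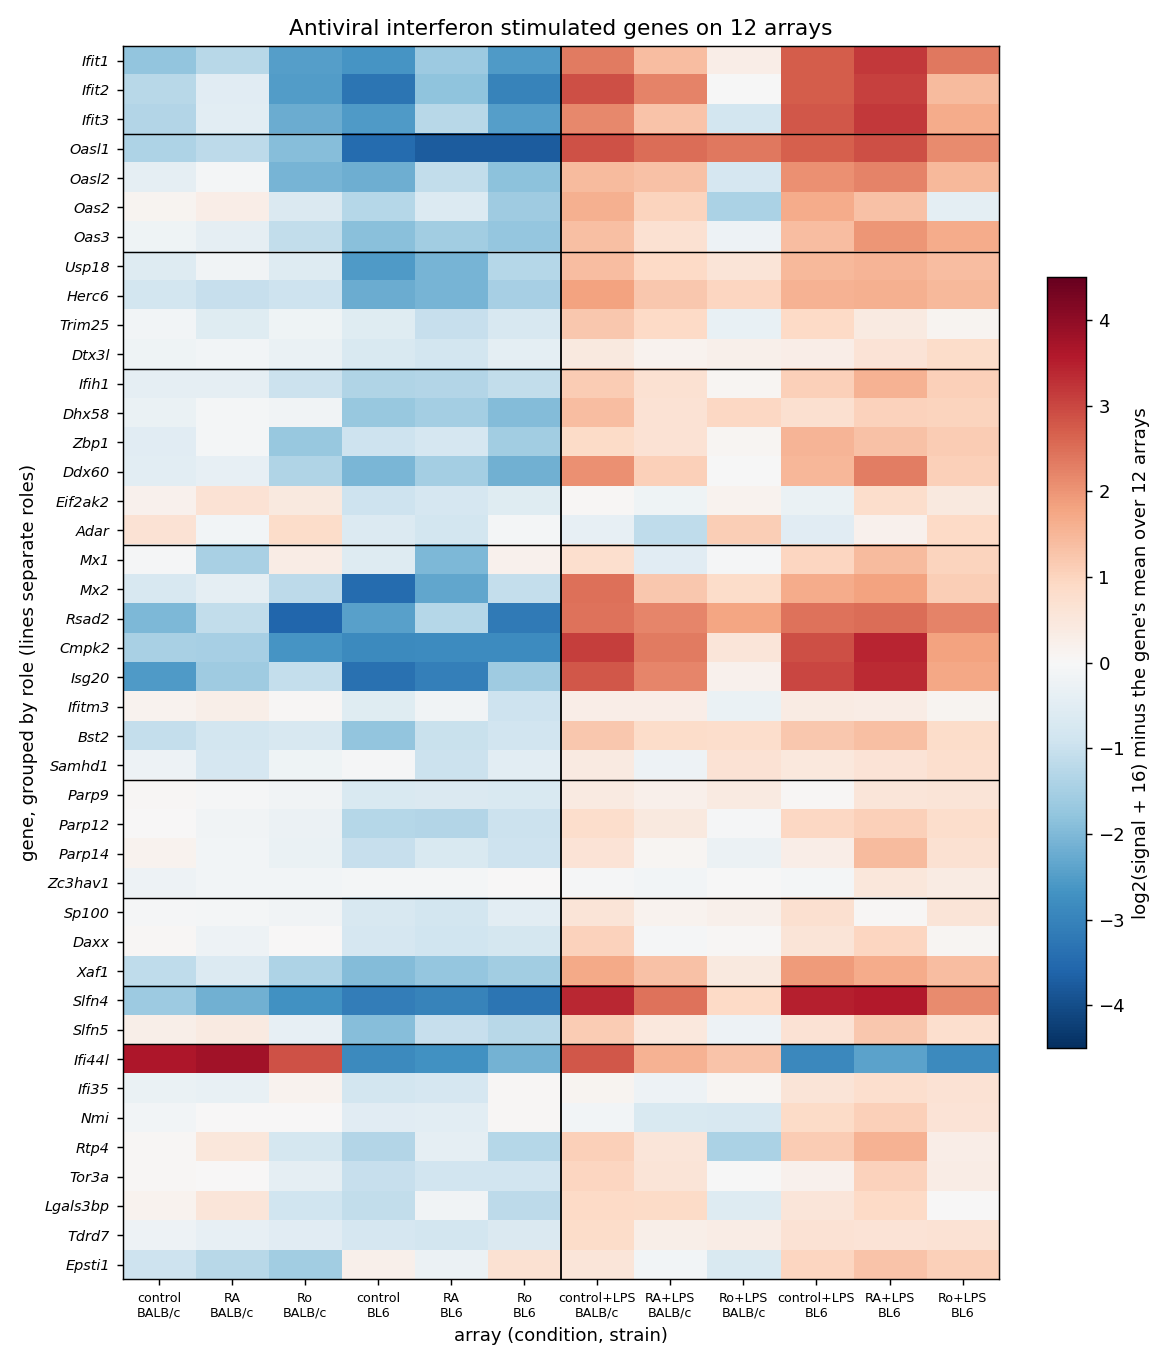
Signal of the 42 measured antiviral interferon stimulated genes (rows, grouped by role) on the 12 arrays (columns, 6 without LPS on the left and 6 with LPS on the right), as log2(signal + 16) minus the gene's mean over the 12 arrays. Most rows turn from blue to red across the vertical line, Ifi44l follows the strain instead, and the Ro columns with LPS are paler than their neighbours.

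LPS raised nearly the whole set. Of the 42 tested members, 37 rose with LPS over all retinoid conditions (6 arrays against 6), while 11.0% of all genes tested were higher. Ifi44l fell, while 47.9% of all genes were lower, and Eif2ak2, Adar, Zc3hav1 and Nmi did not pass the limma adjusted p of 0.05. The p-values test changes at the deposited scaling. At the deposited scaling the median of all genes shifted by -0.41 on the log2 scale with LPS, so each change is given relative to the median gene, with the model's standard error, and each fold is computed from that relative change. On this scale the members had a median change of 1.69 and a range from -0.44 to 5.73, whereas the quartiles of all genes were -0.55 and 0.47. Every LPS array lay above every array without LPS for 19 of 42 members, against 2.99% of all genes. After quantile normalization 3012 of all genes were higher and 3600 lower, in place of 1365 and 5951, and 40 members were higher and 0 lower. With array medians subtracted the split of all genes turned over, to 4817 higher and 2468 lower, and 41 members were higher and 0 lower. With BALB/c arrays alone 24 members rose, in place of 37.

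The IFIT proteins bind viral RNA and hold back its translation, and all 3 genes rose. Ifit1 had signals from 161 to 444 without LPS (median 245) and from 1348 to 9990 with LPS (median 5635). Ifit2 went from 83.9 to 660 (median 209) without LPS and from 952 to 8193 (median 5475) with it. The LPS arrays of both genes lay wholly above the others, by 4.52 ± 0.35 (23-fold, adjusted p = 2.26e-06) for Ifit1 and 4.53 ± 0.40 (23.1-fold) for Ifit2. Ifit3, which neighbours Ifit2 in the genome, ran from 144 to 671 without LPS (median 276) and from 518 to 8657 with LPS (median 3601). Its groups overlapped, because the BALB/c array with Ro and LPS (518) fell below the BALB/c array with RA alone (671), and its change was 3.85 ± 0.45.

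Active OAS enzymes make oligoadenylates that activate the nuclease RNase L. All 4 measured OAS and OAS-like genes rose, and whether the product of each has this activity was not measured. Oasl1, whose product in mice represses translation of Irf7, ran from 57.7 to 423 without LPS (median 161) and from 4397 to 7359 with LPS (median 6080). These groups were far apart, with a change of 5.57 ± 0.33 (47.5-fold, adjusted p = 3.61e-07). Its neighbour Oasl2 ran from 209 to 951 without LPS (median 362) and from 599 to 4803 with LPS (median 2805), a rise of 3.0 ± 0.40 with overlap at the BALB/c array with Ro and LPS. Oas2 had the smallest change of the family, 1.66 ± 0.36, from 127 to 512 without LPS (median 259) and from 146 to 1360 with LPS (median 953). Both LPS arrays with Ro lay within the range of the arrays without LPS.

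ISG15 is a ubiquitin-like protein that is joined to other proteins during infection. The 4 measured genes of its cycle and of ubiquitin ligases rose. Herc6, the main ligase for ISG15 in mice, ran from 172 to 484 without LPS (median 357) and from 1700 to 3091 with LPS (median 2525), a rise of 3.28 ± 0.25 (9.74-fold). Usp18, which removes ISG15 and dampens signalling at the interferon receptor, ran from 431 to 2329 without LPS (median 1409) and from 3866 to 7634 with LPS (median 6810), a rise of 2.83 ± 0.36. The groups did not overlap for either gene. Dtx3l, the ubiquitin ligase partner of Parp9, changed least, by 1.26 ± 0.17, and its groups were also apart, at 628 to 1031 (median 872) and 1257 to 1983 (median 1456). Trim25, a ligase that acts on the sensor RIG-I, rose by 1.47 ± 0.20.

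Of the 6 genes of sensors of viral RNA or DNA and of enzymes that act on double-stranded RNA, 4 rose. Ddx60, a helicase, ran from 49.9 to 214 without LPS (median 94.4) and from 279 to 1439 with LPS (median 723), a rise of 3.07 ± 0.34. Dhx58, which encodes the RIG-I relative LGP2, ran from 159 to 631 (median 384) and from 1059 to 1765 (median 1321), a rise of 2.32 ± 0.26. Ifih1, the RNA sensor MDA5, rose by 2.27 ± 0.24, from 476 to 933 (median 601) to between 1329 and 3690 (median 2631). Zbp1, a sensor of Z-form nucleic acid, rose by the same 2.27 ± 0.23, from 337 to 1070 (median 631) to between 1206 and 3289 (median 2318). None of these 4 genes had overlapping groups. The kinase PKR (Eif2ak2), which stops translation, ran from 167 to 536 without LPS (median 301) and from 269 to 584 with LPS (median 364), and its relative change of 0.74 ± 0.27 did not pass (adjusted p = 0.325). The editing enzyme Adar ran from 449 to 1440 (median 752) and from 356 to 1747 (median 775), with 0.47 ± 0.29 and adjusted p = 0.884. For both genes the groups overlapped. Eif2ak2 passed after quantile normalization, with array medians subtracted and on BL6 arrays alone, and Adar with array medians subtracted.

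All 8 genes listed for restriction of entry, copying or budding of viruses rose. Whether these strains make a working product of each gene was not measured. Rsad2 encodes viperin, which makes a nucleotide that ends viral RNA chains, and Cmpk2, beside it in the genome, encodes a nucleotide kinase. Rsad2 ran from 200 to 1167 without LPS (median 540) and from 8793 to 14759 with LPS (median 12914), a rise of 4.95 ± 0.25 (30.8-fold) with the smallest adjusted p of the set, 1.24e-07. Its other probe sets rose more in a fit of all probe sets, 1421008_at by 6.19 ± 0.23 and 1421009_at by 6.02 ± 0.23. Cmpk2 ran from 47.3 to 149 (median 53.2) and from 648 to 4901 (median 2855), a rise of 5.12 ± 0.36 (34.7-fold). Both pairs of groups were wide apart, as they were for the exonuclease gene Isg20 (4.84 ± 0.54), the GTPase gene Mx2 (3.47 ± 0.44) and Bst2 (2.49 ± 0.18), whose product tethers budding virions. Mx1 rose by 1.61 ± 0.36 and Samhd1, an enzyme that breaks down the building blocks of DNA, by 1.30 ± 0.14, with overlapping groups. Ifitm3, which blocks fusion of viruses with cell membranes, was already high without LPS, from 5186 to 12052 (median 9585), and ran from 8153 to 12870 with LPS (median 12209). Its change of 0.80 ± 0.16 was the smallest rise of the set (adjusted p = 0.0492), and it missed the threshold when any of 9 of the 12 arrays was left out, with a range over all alternatives from 0.43 to 1.14.

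Of the genes of the PARP family and the zinc finger antiviral protein, 3 of 4 rose. Parp12 ran from 471 to 1216 without LPS (median 804) and from 1173 to 2589 with LPS (median 2102), a rise of 1.75 ± 0.27. Parp14, which neighbours Dtx3l, rose by 1.38 ± 0.28, from between 712 and 1642 (median 1051) to between 1208 and 3983 (median 2048). Parp9 rose least, by 1.14 ± 0.16, from between 828 and 1415 (median 1021) to between 1388 and 2001 (median 1796). The groups of all 3 genes overlapped. Zc3hav1, the protein that binds viral RNA rich in CpG, ran from 2208 to 2589 (median 2405) and from 2373 to 3649 (median 2527). Its relative change was 0.62 ± 0.11, and it did not pass at the deposited scaling (adjusted p = 0.128). Zc3hav1 passed after quantile normalization and with array medians subtracted.

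Among genes of nuclear bodies and cell death, Xaf1, a partner of the cell death inhibitor XIAP, rose most. It ran from 560 to 1437 without LPS (median 781) and from 3000 to 8326 with LPS (median 6458), a change of 3.22 ± 0.25 (9.31-fold) with no overlap. Daxx ran from 462 to 904 (median 628) and from 834 to 1825 (median 1116), and rose by 1.29 ± 0.23. Sp100 ran from 308 to 539 (median 449) and from 590 to 942 (median 747), and rose by 1.19 ± 0.17. The groups of Sp100 were apart and those of Daxx were not. Both measured Schlafen genes rose as well. Slfn4 had the largest change of the whole set on the chosen probe sets, 5.73 ± 0.35 (52.9-fold, adjusted p = 3.65e-07). It went from 44.9 to 174 without LPS (median 65.7) to between 1100 and 7059 with LPS (median 4712). Slfn5 ran from 71.0 to 424 (median 192) and from 265 to 742 (median 516), and rose by 1.72 ± 0.35 with overlap.

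The 8 measured genes of other roles held the 1 fall. Tdrd7, a Tudor domain protein, ran from 406 to 621 without LPS (median 493) and from 888 to 1316 with LPS (median 1153), a rise of 1.53 ± 0.15 without overlap. Rtp4 ran from 863 to 3138 (median 1450) and from 813 to 6445 (median 3913), a rise of 1.48 ± 0.36 with overlap, since the BALB/c array with Ro and LPS was its lowest. The call for Rtp4 was lost in 8 of 23 alternatives (highest adjusted p = 0.738): on BALB/c arrays alone, on its other probe set, with the mean of both, and without the BALB/c array of the control with LPS, the BL6 array of RA, or any of the 3 BL6 arrays with LPS. Ifi35 rose by 1.07 ± 0.20, from between 2241 and 4466 (median 3213) to between 3398 and 6778 (median 5120). Its protein partner Nmi ran from 764 to 1150 (median 1065) and from 668 to 2347 (median 1361), and its 0.76 ± 0.28 did not pass (adjusted p = 0.309). Nmi passed after quantile normalization, with array medians subtracted and on BL6 arrays alone. All 3 BL6 arrays of Nmi with LPS were high and all 3 BALB/c arrays with LPS were below the 3 BALB/c arrays without it. Ifi44l was lower by -0.44 ± 0.33 relative to the median gene (adjusted p = 0.0422 at the deposited scaling), and not past the threshold after quantile normalization or with array medians subtracted. The fall rested on BALB/c arrays, where signals of 892 to 1706 without LPS became 286 to 860, and in BL6 arrays Ifi44l lay at background throughout. It was lost when any of 7 arrays was left out, with a range over all alternatives from -1.02 to 0.15.

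Genes of the pathway that controls the set were read from a list of 35, of which 31 were tested. With LPS, 19 of the 31 were higher and 8 lower, against 11.0% and 47.9% of all genes. The largest changes were those of Cxcl9 (5.0 ± 0.62), Irf7 (4.82 ± 0.30), Cxcl11 (4.63 ± 0.44), Cxcl10 (4.33 ± 0.51), the feedback inhibitor Socs3 (3.70 ± 0.27) and Ifnb1 (2.12 ± 0.33). Irf7 had signals from 146 to 937 without LPS and from 6601 to 10710 with it, 28.3-fold apart. Ifnb1 had signals from 1.23 to 18.8 without LPS, below the array medians, and from 27.3 to 160 with LPS, so no fold is given. The means of Cxcl9 (14.57) and Cxcl11 (33.31) without LPS were also below 41.8, the highest array median. The sizes of these 3 changes depend on the 16 added to each signal. Stat2 rose by 1.58 ± 0.27 and Irf9 by 0.83 ± 0.15. The LPS receptor gene Tlr4 fell, with a relative change of -0.58 ± 0.28 (adjusted p = 0.00846 at the deposited scaling) and a signal mean of 204 with LPS against 399.6 without. In this list, 3 interferon genes (Ifna4, Ifna2 and Ifng) did not pass the filter.

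**Figure D2:**
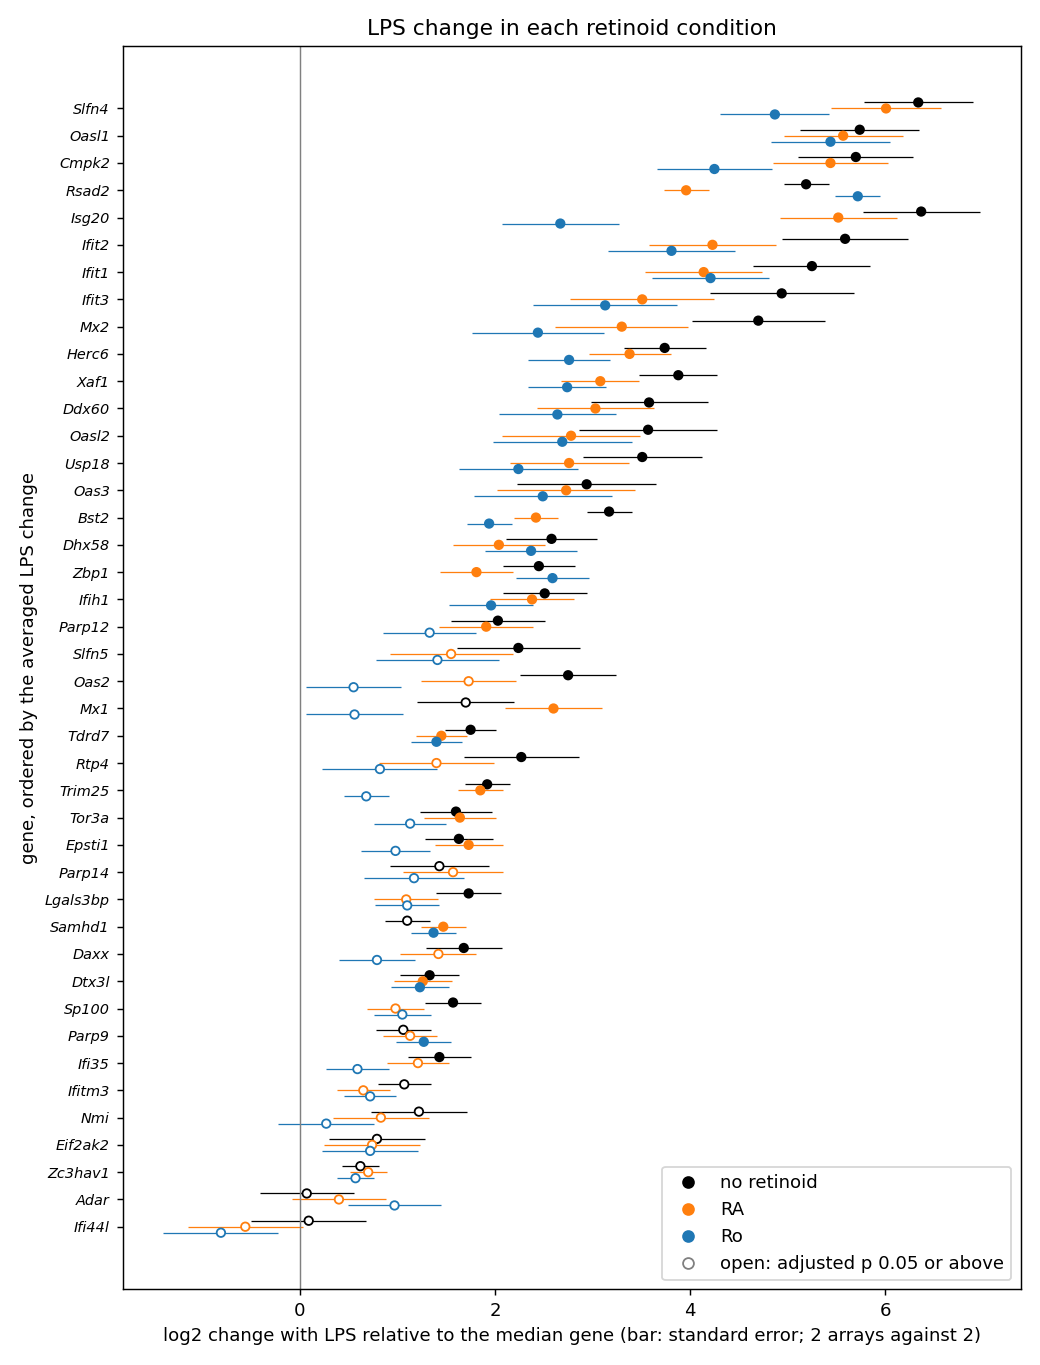
Log2 change with LPS relative to the median gene (x axis) for each of the 42 members (y axis) in cultures without retinoid, with RA and with Ro, each from 2 arrays against 2, with standard errors as bars and filled points past the adjusted threshold. The black points of the upper rows mostly lie furthest right, and the blue points of Isg20, Oas2, Mx1 and Trim25 lie furthest left of their row.

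The LPS response was present in each retinoid condition. Without retinoid, 32 members rose with LPS (background 8.05%), with RA 27 rose (background 6.55%), and with Ro 23 rose (background 6.00%). In each condition 0 members were lower, against 37.7%, 28.6% and 24.0% of all genes. Both LPS arrays lay above both others in 37, 37 and 31 members (14.0%, 13.9% and 15.0% of all genes) and below them in 0 (52.0%, 46.2% and 47.5%). The median changes of the 42 members were 2.26, 1.83 and 1.39. Isg20 gave the widest spread, with changes of 6.37 ± 0.60 without retinoid, 5.52 with RA and 2.67 with Ro, each past the threshold. Its signal without LPS was 118 (BALB/c) and 61.5 (BL6) without retinoid and 355 and 241 with Ro. Rsad2 had its largest change with Ro, at 5.19 ± 0.23, 3.96 and 5.72 in the same order. The differences themselves were tested as interactions, and 0 members passed for RA with LPS (background 0.00% in either direction) or for Ro with LPS (background 0.386% lower). The smallest adjusted p for Ro was that of Isg20, 0.0859, with an interaction of -3.67 ± 0.84. At an unadjusted p under 0.05 there were 5 members for Ro, against 15.4% of all genes, and 1 for RA, against 5.69%. Counts of rises depended on single arrays: without the BL6 array of the control, 20 rose without retinoid; without the BL6 array of RA, or of RA with LPS, 12 and 13 rose with RA; without the BALB/c or BL6 array of Ro, or the BL6 array of Ro with LPS, 15, 11 and 11 rose with Ro. Quantile normalization moved the split of all genes from 1001 higher and 4686 lower to 2027 and 2738 without retinoid, from 814 and 3559 to 1558 and 2105 with RA, and from 746 and 2982 to 1507 and 1921 with Ro. With array medians subtracted more genes were higher than lower in each, at 3137 and 1817, 2457 and 1451, and 2463 and 1418.

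Several probe sets existed for 22 of the 42 genes, which gave 37 further probe sets that passed the filter. In a fit of all probe sets, 36 of the 37 had an LPS value of the same sign as the chosen one, and 27 were higher, 1 lower and 9 not past. The call was the same as on the chosen probe set for 27 of the 37. Samhd1 was the exception: its chosen probe set rose by 1.31 ± 0.14, whereas 1434438_at was lower by -0.73 ± 0.31 (adjusted p = 0.00735). That probe set had signals from 1768 to 3491 without LPS and from 339.4 to 2364 with it. Adar, not past on its chosen probe set, was higher on 1425405_a_at, by 1.39 ± 0.20. Zc3hav1 was likewise higher on both of its other probe sets, 1428378_at (0.86 ± 0.16) and 1431909_at (1.41 ± 0.24). Another 6 missed the threshold that the chosen probe set of their gene passed: those of Xaf1 (0.32 ± 0.20, adjusted p = 0.708), Rtp4 (0.97 ± 0.38, 0.227), Epsti1 (1444103_at, 0.52 ± 0.28, 0.778), Sp100 (1.09 ± 0.30, 0.0678) and Ifi44l (1421596_s_at, -0.28 ± 0.34, 0.0971), and 1444064_at of Samhd1 (0.42 ± 0.20, 0.974). The LPS calls of these 8 genes therefore hold for the chosen probe set and not for every other. The other probe sets of Xaf1 and Rtp4 were dim, with mean signals of 33.56 and 49.92 against 3516 and 2729 for the chosen ones, which limits what they can show.

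Some members were lower with Ro. In LPS cultures 6 of 42 members were lower with Ro than without retinoid (2 arrays against 2), while 5.59% of all genes were lower, and 0 members were higher, while 1990 of the 12429 genes were. The members had a median change of -0.80 relative to the median gene, and 40 of the 42 lay below it. In 22 of 42 members both Ro arrays lay below both arrays without retinoid, against 15.1% of all genes, and in 5 both lay above (41.3%). At the deposited scaling the median gene shifted by 0.29.

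Oas2 changed most. Its signal in LPS cultures was 1285 (BALB/c) and 1360 (BL6) without retinoid, 845 and 1061 with RA, and 146 and 304 with Ro. The Ro arrays lay within the range of the cultures without LPS, and the change against no retinoid was -2.84 ± 0.49 (7.18-fold lower, adjusted p = 0.00566). Trim25 had 6420 and 5082 without retinoid and 2163 and 2947 with Ro, lower by -1.46 ± 0.23 (adjusted p = 0.00712). Ifit2 had 7269 and 6355 without retinoid and 952 and 2595 with Ro (-2.39 ± 0.65). In each of these genes both Ro arrays were the lowest of the 6 LPS arrays on the chosen probe set. Trim25 had 5000 and 3017 without retinoid and 1707 and 1838 with Ro on 1425974_a_at. On 1426415_a_at it had 1046 and 1284 without retinoid and 366.9 and 1159 with Ro, so that these groups overlapped. Isg20 had 5388 and 6326 without retinoid and 884 and 2636 with Ro (-2.21 ± 0.60). Slfn4 had 6211 and 6651 against 1100 and 2586 (-2.21 ± 0.56). Cmpk2 had 3912 and 3422 against 648 and 1595 (-2.12 ± 0.59). In these 3 genes too, the BALB/c array with Ro was the lowest LPS array on the chosen probe set. On 1422095_a_at of Cmpk2 the lowest was the BL6 array with Ro (410.3, against 732.2 in BALB/c). The adjusted p-values of the last 4 genes ran from 0.0326 to 0.0468.

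**Figure D3:**
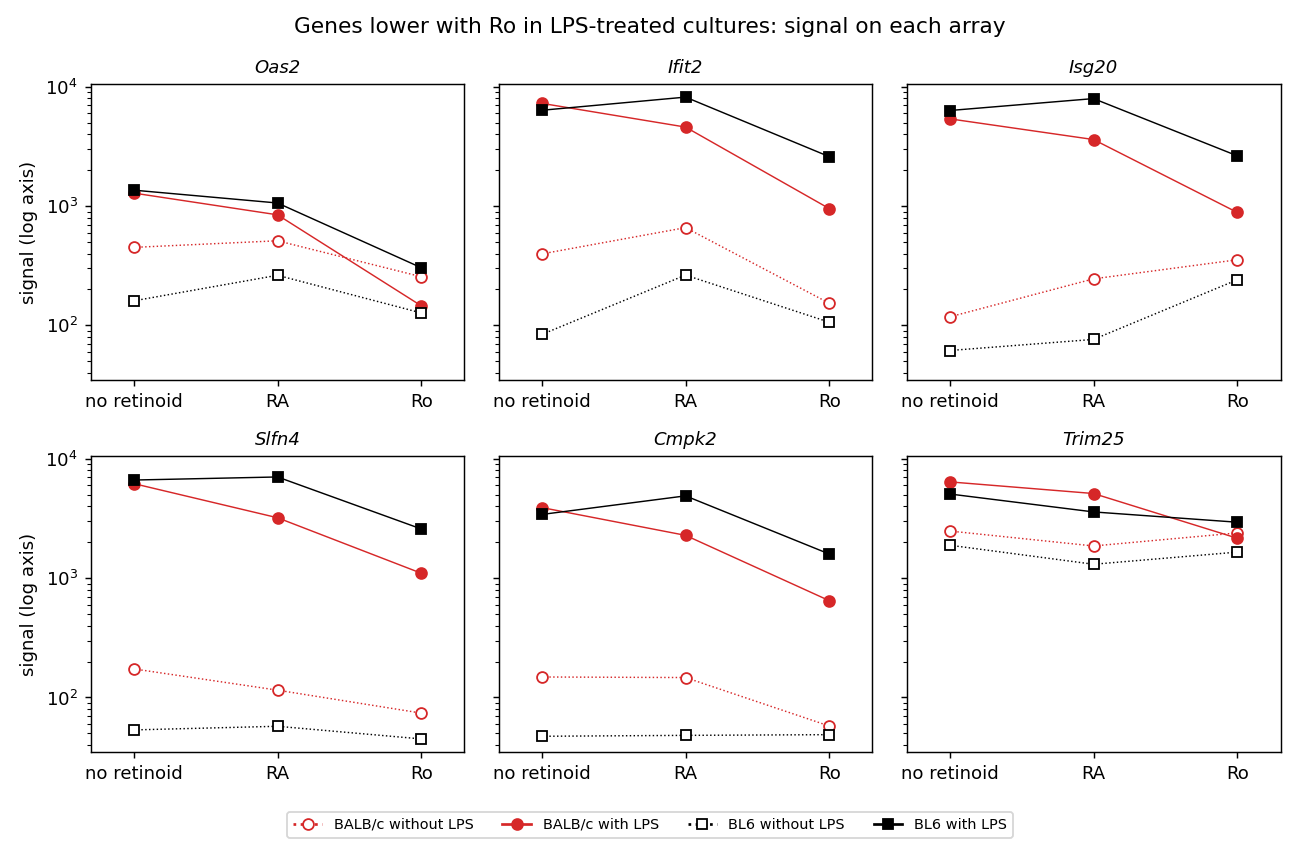
Signal (y axis, log scale) of the 6 members that were lower with Ro in LPS cultures, by retinoid condition (x axis), with 1 point per array, open without LPS and filled with LPS, red for BALB/c and black for BL6; lines join the arrays of 1 strain and LPS state. The filled points drop at Ro in all 6 panels, to 146 and 304 for Oas2, and the red ones drop further.

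The other families moved unequally. Ifit3 had a relative change of -2.35 ± 0.74 and an adjusted p of 0.0705, Rtp4 -1.96 ± 0.59 and 0.0659, and Lgals3bp, a secreted glycoprotein, -1.29 ± 0.33 and 0.0548. Near the median gene were Samhd1 (-0.04), Parp9 (-0.02) and Zc3hav1 (-0.06). Adar (1.15 ± 0.48, adjusted p = 0.0535) and Eif2ak2 (0.14 ± 0.49) were the 2 members above it on the chosen probe sets. The probe sets of Adar disagreed. Signals of 1425405_a_at were 966.9 (BALB/c) and 717.6 (BL6) without retinoid and 595.4 and 520.6 with Ro. Those of 1439276_at were 169.6 and 87.23, then 202.1 and 271.1. Averaged over both LPS states, 2 of 42 members were lower with Ro, near the 4.36% of all genes, and 0 were higher, against 14.1%. The lower members were Oas2, by -1.77 ± 0.44 (adjusted p = 0.0307), and Lgals3bp, by -1.0 ± 0.24 (adjusted p = 0.043). Lgals3bp had 4913, 2039, 8352 and 6441 on the 4 arrays without retinoid and 2394, 1949, 2949 and 4535 on the 4 with Ro, which overlapped, as they did for each of the 42 members (4.83% of all genes lay wholly above and 2.13% wholly below). The median gene shifted by 0.23, the median of the members relative to it was -0.54, and 39 of 42 lay below the median gene.

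Without LPS, 1 member was lower with Ro (background 1.21%). Rsad2 had 622 (BALB/c) and 459 (BL6) without retinoid, 1167 and 1039 with RA, and 200 and 266 with Ro. The 3 conditions did not overlap on the chosen probe set, and Rsad2 was lower with Ro by -1.32 ± 0.23 (adjusted p = 0.0239). On 1421008_at they overlapped, with 218 and 91.13 without retinoid and 106.6 and 61.56 with Ro. They did not overlap on 1421009_at. With the mean of its probe sets the call for Rsad2 was lost. The value of Rsad2 with RA, 1.05 ± 0.23 relative to the median gene, did not pass (adjusted p = 0.117). Isg20, at 118 and 61.5 without retinoid and 355 and 241 with Ro, had 1.44 ± 0.60 and did not pass either (adjusted p = 0.194).

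The Ro counts depended on few arrays and on the scaling. For Ro with LPS the count of 6 became 0 without the BL6 array of the control with LPS, 2 without the BALB/c array of that condition, 1 without the BALB/c array of Ro with LPS, and 10 (9 lower) when the BALB/c or the BL6 control array without LPS was left out. For the averaged Ro comparison the count of 2 ran from 0 to 8: 0 without either array of the control with LPS or the BALB/c array of Ro with LPS, 1 without the BL6 array of RA or of Ro or, then as a rise, the BALB/c array of the control, and 8 without the BL6 array of the control. Rsad2 was lost without the BALB/c array of the control or either array of Ro. Oas2 kept its sign in every alternative run, from -3.45 to -2.25 with LPS. Among all genes quantile normalization turned 1990 higher and 695 lower with LPS into 1394 and 1124, 1756 and 542 on average into 946 and 818, and 184 and 150 without LPS into 193 and 292. With array medians subtracted more genes were lower than higher in all 3 comparisons, at 991 higher and 1478 lower with LPS, 594 and 1131 on average, and 156 and 327 without LPS, and 17, 12 and 1 members were lower.

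Pathway genes and cell type markers also differed with Ro in LPS cultures. Of the 31 pathway genes, 4 were higher (Jak2, Tyk2, Irf8 and Sting1) and 3 lower (Cxcl9, Ifnar2 and Ikbke). Among all 12429 genes, 1990 were higher and 5.59% were lower. Ifnar2, a chain of the type I interferon receptor, was lower by -1.56 ± 0.24, and Cxcl9 by -3.77 ± 0.76; these 7 were picked after their values were seen. In the same cultures the summed signal of the 7 measured macrophage and monocyte markers ran from 28520 to 32470 without retinoid and from 11610 to 12280 with Ro. The sum of the 7 plasmacytoid dendritic cell markers, whose defining member Siglech was at most 23.7 in these cultures, ran from 534.8 to 720.7 without retinoid and from 1230 to 1758 with Ro. Most of this sum was Tcf4 alone, at 531.7 (BALB/c) and 343.9 (BL6) without retinoid and 994.8 and 1529 with Ro. Cox6a2 of the same list was lower with Ro, at 80.63 and 93.72 against 50.76 and 63.92. The sum of the 9 dendritic cell markers ran from 41190 to 42260 without retinoid and from 50390 to 51480 with Ro. Within it Ccr7 was higher with Ro (8711 and 5175 against 12410 and 12280), as was Cd86 (5945 and 7830 against 11260 and 9951). Itgax was lower with Ro (2734 and 2890 against 2079 and 1571). No listed marker was at 0. Their part in the result was not tested.

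RA gave no member past the threshold. Averaged over LPS states, 0 of 42 members were higher or lower (background 0.00% in either direction), the median change was 0.01, and 22 members lay above the median gene and 20 below. In 0 members did the 4 RA arrays lie wholly above (0.386% of all genes) or below (0.772%) the 4 without retinoid. At an unadjusted p under 0.05 there was 1 member, and 8.24% of all genes. Of the 3 with the smallest p, Samhd1 had 3702 and 4163 without retinoid and LPS, 5761 and 5940 with LPS, 2538 and 2183 with RA, and 3709 and 6642 with RA and LPS (BALB/c first in each pair). Its averaged change was -0.50 ± 0.18, with a 95% interval from -0.89 to -0.12 and an adjusted p of 0.501. Only the BL6 array with RA and LPS was not lower than its counterpart. Mx1, a GTPase gene, had 1674 and 1165, 2943 and 3436, 636 and 420, and 1237 and 4751 in the same order, and a change of -0.92 ± 0.44 (interval -1.87 to 0.04, adjusted p = 0.623). It too was lower with RA on every array but the BL6 one with LPS. Trim25 had 2487 and 1891, 6420 and 5082, 1863 and 1309, and 5128 and 3594, lower with RA in all 4 pairs, with -0.46 ± 0.24 (interval -0.98 to 0.06, adjusted p = 0.662).

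In cultures without LPS, 0 members passed for RA against no retinoid (background 0.0322% higher and 0.113% lower). With LPS, 0 passed as well (background 0.00% in either direction), with a median of -0.21, both RA arrays above in 0 members (17.1% of all genes) and below in 4 (11.3%). The strains differed in this last comparison: in BALB/c the members had a median of -0.49 with 40 of 42 below the median gene, and in BL6 a median of 0.11 with 27 of 42 above it. The difference was not tested, since each value rests on 1 array against 1.

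On the chosen probe sets the strains differed in 3 members. BALB/c was higher than BL6 for 2 of 42 (background 11.5%) and lower for 1 (background 3.88%), averaged over conditions, with the median gene at 0.14. Ifi44l gave the clearest difference. Its signals in BALB/c arrays were 286 to 1706 (median 876), and in BL6 arrays 0.610 to 12.4 (median 2.19), below the array medians, so that no fold is given. All 6 BALB/c arrays were above all 6 BL6 arrays, by 5.15 ± 0.33 (adjusted p = 1.76e-06), a size that depends on the added 16. Its probe set 1421596_s_at showed the same, with 304.8 to 1866 in BALB/c and 0.533 to 9.83 in BL6, and a difference of 5.14. A sequence difference between the strains under the probes was not tested.

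Epsti1 was lower in BALB/c, at 610 to 2717 (median 1053) against 1541 to 4504 in BL6 (median 3317). Within each of the 6 conditions the BALB/c array was the lower one, and the averaged difference was -1.48 ± 0.21 (2.78-fold, adjusted p = 0.00197). The groups overlapped, as LPS moved both. Its other probe sets 1454169_a_at and 1444103_at were also lower, by -1.45 and -1.61, and 1432235_at, with -0.49, did not pass. In a fit of all probe sets, further genes passed on other probe sets. BALB/c was higher for Dhx58 (1420768_a_at, 1.74), Tor3a (1450454_at, 1.61, and 1421998_at, 1.03), Cmpk2 (1422095_a_at, 1.01) and Trim25 (1425974_a_at, 0.61). BALB/c was lower for Samhd1 (1444064_at, -0.89). In that fit the chosen probe set of Dhx58 passed too (0.66), and those of Tor3a, Cmpk2, Trim25 and Samhd1 did not. Another of Trim25, 1426415_a_at, had -0.72 and did not pass. Relative to the median gene, 1 member was higher in BALB/c in 6 of 6 conditions (12.1% of all genes were), namely Ifi44l, and 2 were lower, Epsti1 and Zc3hav1 (1489 of the 12429 genes were). Oasl1 was higher in BALB/c by 0.94 ± 0.33 (adjusted p = 0.047), at 247 to 7264 (median 2774) against 57.7 to 7359 (median 2236), an average over states that differed. The call for Oasl1 was lost in 11 of 19 alternatives (highest adjusted p = 0.118), among them the leaving out of any of the 6 arrays without LPS or of the BALB/c array of the control with LPS, each of which gave a count of 2. The count of 3 became 5 without the BALB/c array of Ro with LPS. Quantile normalization turned 1425 higher and 482 lower genes into 898 and 1008, and subtracting array medians gave 715 and 1288, with 1 member higher and 2 lower.

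**Figure D4:**
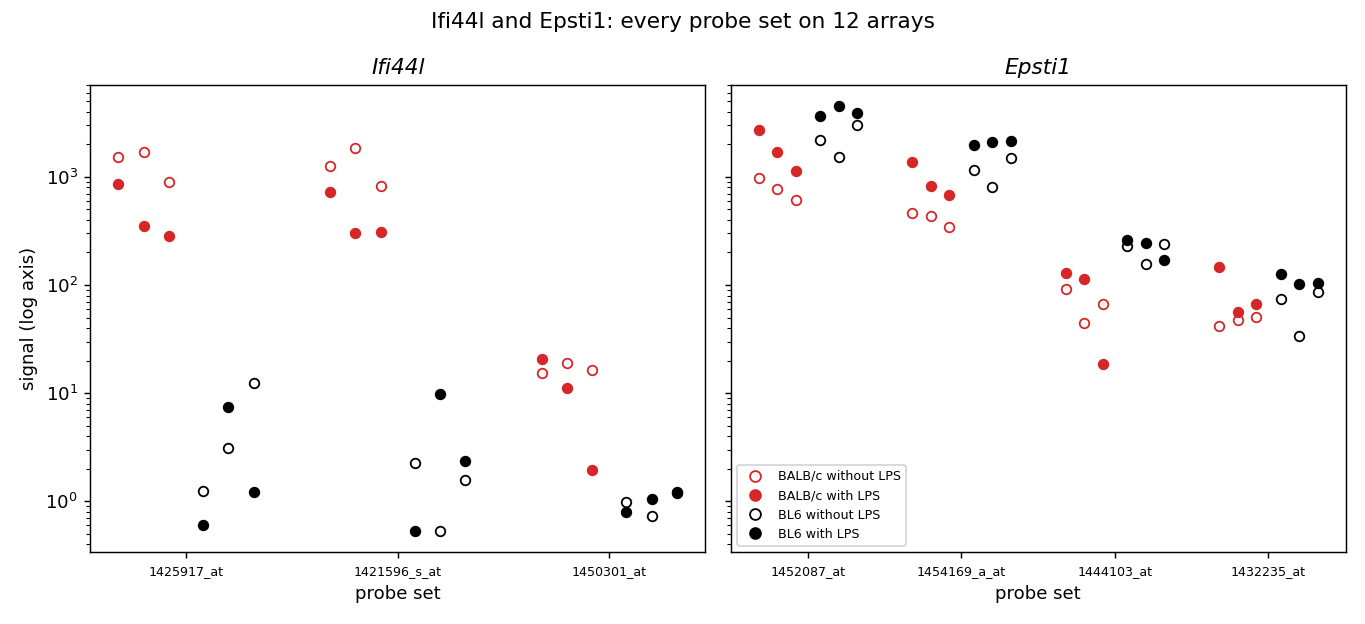
Signal (y axis, log scale) of every probe set of Ifi44l and Epsti1 (x axis) on the 12 arrays, with BALB/c in red on the left and BL6 in black on the right of each probe set, open without LPS and filled with LPS. Both bright Ifi44l probe sets lie between 286 and 1866 in BALB/c and at or below 12.4 in BL6, and 2 bright Epsti1 probe sets lie lower in BALB/c.

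Most members had a larger LPS value in BL6, and 1 passed the test of the difference. The members' median change was 1.40 in BALB/c and 2.39 in BL6, and the change was larger in BL6 for 40 of 42 members, as it was for 53.1% of all genes. Tested as an interaction of strain with LPS, 1 member passed, while 0.105% of all genes were lower in this test (13 genes) and 0.00805% higher. The members' median interaction was -1.17 (BALB/c minus BL6), against quartiles of -0.28 and 0.28 over all genes, and 33 of 42 had an unadjusted p under 0.05, against 11.3% of all genes. Across the 42 genes the changes in the strains had a Pearson r of 0.933 and a Spearman rho of 0.889, a description over genes that share the same 12 arrays.

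Oasl1 was the member that passed. Without LPS its signal was 361 (no retinoid), 423 (RA) and 247 (Ro) in BALB/c and 74.4, 59.1 and 57.7 in BL6. With LPS it was 7264, 5741 and 5126 in BALB/c and 6419, 7359 and 4397 in BL6. The strains were apart without LPS and mixed with it. The LPS change was 4.62 in BALB/c and 6.54 in BL6, and the interaction was -1.89 ± 0.27 (adjusted p = 0.018). It did not pass after quantile normalization or when any of 7 of the 12 arrays was left out, with a range from -2.10 to -1.45 over the alternatives. Leaving out 1 array gave counts of members from 0 to 6: 6 without the BALB/c array of the control with LPS, 4 without the BL6 array of Ro, and 0 without the BALB/c array of the control, RA, RA with LPS or Ro with LPS, or the BL6 array of the control, RA or RA with LPS. Quantile normalization left 1 gene higher and 2 lower, in place of 1 and 13, and 0 members, and subtracting array medians gave 1 higher, 4 lower and 1 member.

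**Figure D5:**
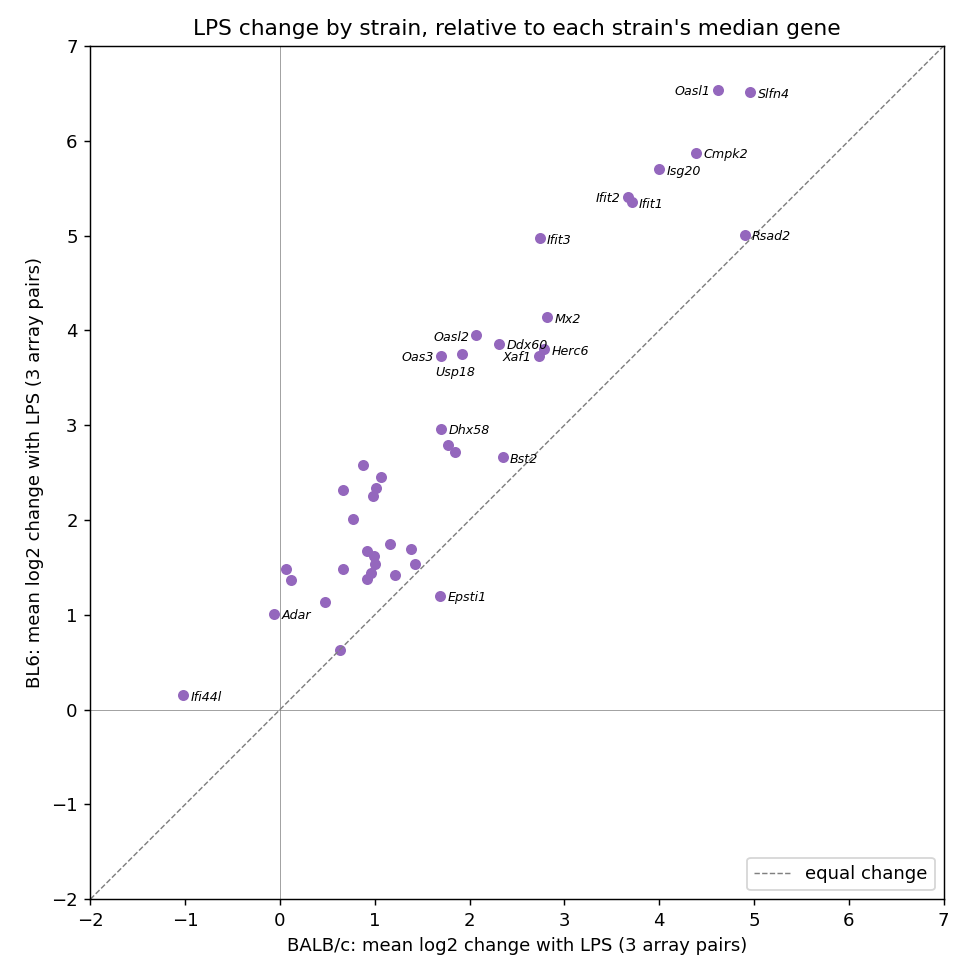
Mean log2 change with LPS over 3 array pairs in BALB/c (x axis) and BL6 (y axis), each relative to that strain's median gene, for the 42 members; the dashed line marks equal change. 40 of 42 points lie above the line, Oasl1 at 4.62 and 6.54, while Epsti1 lies below it.

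Within single conditions the strains were compared as 1 array against 1, so these differences have no test. Without LPS the members' median difference, BALB/c minus BL6 relative to the median gene, was 0.77 without retinoid, 0.45 with RA and 0.33 with Ro, with 39, 37 and 32 of 42 members above 0. With LPS the medians were -0.20, -0.68 and -0.57, with 29, 39 and 34 of 42 below 0. Oas3 had signals in BALB/c and BL6 of 351 and 98.3 without retinoid and 1061 and 1084 with LPS added. With RA it had 297 and 124.7, then 651.8 and 1645 with LPS, and with Ro 179.7 and 107.9, then 336.9 and 1322. BALB/c was thus the higher strain in all 3 conditions without LPS, the lower one with LPS in RA and Ro cultures, and nearly equal to BL6 with LPS alone. The interaction of Oas3, -2.01 ± 0.45, did not pass (adjusted p = 0.111). Ifit3 had the most negative value, -2.20 ± 0.61, at adjusted p = 0.207. Rsad2 (4.90 in BALB/c and 5.01 in BL6), Trim25 (1.42 and 1.54) and Zc3hav1 (0.63 and 0.63) had nearly equal changes, and Epsti1 a larger one in BALB/c (1.69 against 1.2). Of the pathway genes, Irf7 passed the same test, with -1.61 ± 0.29 and adjusted p = 0.0489. Its signal without LPS ran from 462 to 937 in BALB/c and from 146 to 205 in BL6, and with LPS from 6601 to 10710 and from 6970 to 8119.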

How the data were processed

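Messenger RNA of 12 cultures was measured on 12 single-colour Affymetrix arrays. The authors deposited linear probe set intensities, made with MAS5 per the submitters' processing notes, with no version or target value given. Control probe sets (64) and those annotated to several genes (932) were left out, and 34945 of 45101 probe sets named 1 gene. Intensities were analysed as log2(signal + 16), which understates changes of dim genes. Kept probe sets lay above their array's median on at least 2 of 12 arrays, and the one of highest mean stood for its gene (12429 genes). Linear models in limma (version 3.58.1, under R 4.3.3), with moderated variances that follow mean intensity and tested on simulated data, gave p-values with Benjamini-Hochberg adjustment over all genes and a threshold of 0.05. Averaged and strain effects used additive terms for retinoid, LPS and strain. Single conditions and how RA or Ro changed the LPS response used 6 condition terms plus strain, and the interaction of strain with LPS was added to the additive terms. The p-values test changes at the deposited scaling, and printed log2 values are relative to the median gene. No fold is given where a group mean lay below 41.8, the highest array median. In the table, 0 columns were unused.

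Replicate 1 is BALB/c and replicate 2 is BL6 in every condition, so strain is the block. The strain differences of 2 conditions correlated across 12429 genes with r from 0.304 to 0.699 (15 pairs). Any batch shared by arrays of 1 replicate number is confounded with strain and cannot be told apart from it. Separate animals per culture are not stated in the labels, so the p-values cover only the spread of these arrays, whose number limits the precision. The members and lists were chosen with earlier results of these data known. A gene of the pathway list is not reported here. For LPS, the genes named are the 2 largest changes and the smallest of each role plus those that fell or did not pass. For other comparisons they are up to 6 past the threshold, or the 3 smallest p where none passed, and further genes are examples named after their values were seen. Alternatives covered scaling, pseudocount, filter, trend, probe sets, the block, strains alone and each array left out.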

Additional observations from a re-analysis of the deposited data

Results flagged for a closer look

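Oasl1 differed between the strains in its response to LPS. The interaction of strain with LPS, tested in limma across 12429 genes, was -1.89 ± 0.27 on the log2 scale relative to the median gene (adjusted p = 0.018), with a change of 4.62 in BALB/c and 6.54 in BL6. The LPS change was smaller in BALB/c in 3 of 3 retinoid conditions. The signal without LPS was higher in BALB/c in each of these conditions, at 361, 423 and 247 against 74.4, 59.1 and 57.7 in BL6. Over the alternatives run the value stayed between -2.10 and -1.45, and the highest adjusted p was 0.0936.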

How the results depend on the processing

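Over 961 recalculations of the LPS changes of the 42 members, 891 kept direction and side of the threshold, 55 lost the threshold, 13 gained it and 2 reversed: Samhd1 on probe set 1434438_at (-0.73) and Ifi44l on BL6 arrays alone (0.15, adjusted p = 0.732). Of 191 recalculations of the 9 Ro values past the threshold 57 lost it, and of 76 of the 4 strain values 19 did, with 0 reversed in either. For 21 of the 42 members all alternatives gave the same LPS call. The count past the threshold for LPS was 38 (25 on BALB/c arrays alone). With array medians subtracted it was 36 for LPS with Ro (23 otherwise), 12 for Ro on average (2 otherwise), 17 for Ro with LPS (6 otherwise) and 1 for the interaction of Ro with LPS (0 otherwise). After quantile normalization it was 5 for Ro on average, 1 for RA without LPS, 2 for Ro without LPS and 0 for the interaction of strain with LPS. Without the filter it was 1 for Ro on average and 3 for Ro with LPS, without the intensity trend 1, 3 and, without LPS, 0, and with log2(signal + 1) 3 for Ro with LPS. With the mean of a gene's probe sets it was 0 for Ro without LPS and 5 for strain. Ro on average gave 0 on BL6 arrays alone. A fit of only the 4 arrays compared gave 8 for RA without LPS, 3 for Ro without LPS and 15 for Ro with LPS. With no replicate block the count was 0 for Ro on average, 0 for Ro without LPS and 2 for Ro with LPS, and moved by less than 1.5 times elsewhere (LPS 35). The cause of these moves was not tested. With each array left out in turn, the lone array of its condition assumed to vary like the rest, the counts ran from 35 to 37 for LPS, 20 to 34 without retinoid, 12 to 29 with RA, 11 to 23 with Ro, 0 to 0 for every RA comparison and its interaction, 0 to 8 for Ro on average, 0 to 1 without LPS, 0 to 10 with LPS, 0 to 1 for its interaction with LPS, 2 to 5 for strain and 0 to 6 for strain with LPS. Signals below the array medians, as for Ifi44l in BL6 and Ifnb1 without LPS, limit what their changes can show.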

Other observations

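Genes of the interferon pathway other than those already described also changed with LPS, and they were chosen after their values were seen. Sting1, the adaptor of the cytosolic DNA sensor, was lower by -1.98 ± 0.27 (3.94-fold, adjusted p = 1.62e-05), with a signal mean of 418.6 with LPS against 1985 without. Ifngr1, a chain of the receptor for interferon gamma, was lower by -1.76 ± 0.19 (3.39-fold), while the other chain, Ifngr2, was higher by 1.28 ± 0.12. Both chains of the type I receptor were higher, Ifnar1 by 0.90 ± 0.16 and Ifnar2 by 1.37 ± 0.19. Irf8, a factor of dendritic cell development, was higher by 1.52 ± 0.22.

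The Ro values of the set also differed in size between the strains. With LPS, the members' median difference between Ro and no retinoid was -1.06 in BALB/c and -0.65 in BL6, with 40 and 38 of 42 below the median gene. Without LPS it was -0.45 and -0.09, with 33 and 22 of 42 below. Each is 1 array against 1, and the difference between strains was not tested.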
